A study of Mus musculus with 12 samples.

Results

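The comparison described here is that of PPARα-null with wild-type mice in the fed state, made on RNA of the small intestine. It used 6 of the 12 arrays of the series, 3 from wild-type fed and 3 from PPARα-null fed mice, and the arrays were chosen by genotype and feeding state alone, as given in the sample labels. Wild-type mice were 129S1/SvImJ and PPARα-null mice 129S4/SvJae according to the series description, whereas the sample labels name the strain 129Sv for both. All mice were males of 14 weeks that had free access to food. The diet is AIN93M in the series description and RMH-B chow in the methods of the study, and this difference could not be resolved. The small intestine was taken in full length, flushed, and cleared of fat and pancreas. The null allele is present in the whole animal, so that other organs lack the receptor as well. Because the 2 genotypes are also different substrains, an effect of the receptor and one of the substrain cannot be told apart in any value given below. Each group held 3 biological replicates, and no source used here says if several mice were pooled in one. The other 6 arrays, 3 wild-type and 3 PPARα-null, came from mice fasted for 24 h, and they were used to estimate the spread and to set the genotype difference of fed mice beside that of fasted mice.

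PPARα is a nuclear receptor that binds fatty acids. Together with its partner RXR it attaches to the DNA of target genes and raises their transcription, and many of these genes serve the uptake, transport and oxidation of fatty acids. It is best known for the response of the liver to fasting, but enterocytes, which absorb dietary fat, also contain it and express many of the same targets.

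The files held GCRMA intensities on the linear scale, and log2 values of these were compared. A probe set counted as measured when its mean was over 20 in either fed group, which was the case for 9560 of 22690 probe sets and for 5931 of 12394 genes with a symbol of their own. A measured gene was called when any of its probe sets had an unadjusted p under 0.01 in limma and a fold over 1.3. All log2 differences are PPARα-null minus wild-type, so a negative value means a lower signal in PPARα-null mice. Values of single arrays are given in the order replicate 1, 2 and 3. Median intensities of the fed arrays lay between 12.7 and 12.8, and between 40.8 and 41.3% of the probe sets on each array were over 20. For arrays it is their number, 3 per group, that limits the precision.

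Some fed arrays stood apart from the others in a few genes. PPARα-null fed replicate 3 gave high signals for secreted products of the stomach lining, namely Gkn1 (2371, against 6.26 to 9.53 on the other 5 fed arrays), Gkn2 (3867, against 8.63 to 15.8) and Tff1 (1787, against 9.89 to 11). The same array was high for the interferon-inducible genes Ifit3 (520 against 44.6 to 71.4) and Rsad2 (327 against 17.9 to 29.3). Tff2, another stomach peptide, had intensities of 74.8, 31.1 and 1282 in wild-type and 496, 2246 and 3729 in PPARα-null mice, and its log2 difference of 3.48 did not pass the test. Wild-type fed replicate 2 gave 1199 to 1733 on the control probe sets for 18S ribosomal RNA, against 7.53 to 64.5 elsewhere. The pancreas marker Cela2a was highest in wild-type fed replicate 1, with 224, and next in PPARα-null fed replicate 3, with 47.4. Another pancreatic enzyme, Cela3b, had 606, 7.64 and 24.6 in wild-type and 10.2, 28.5 and 357 in PPARα-null mice with its brightest probe set, again highest on these 2 arrays. The pancreas marker Clps was high on all 6 fed arrays and did not share this order. It had 627, 476 and 540 in wild-type and 482, 450 and 351 in PPARα-null mice with 1 probe set. Its other probe set had 812, 487 and 674 against 619, 541 and 592. None of 15 measured genes on the pancreas list was called in limma and 1 had an unadjusted p under 0.05. Their summed intensities were 23230 to 25670 in wild-type and 23470 to 25330 in PPARα-null mice. The most abundant members were Reg1, Spink1 and Zg16. Reg1 stood on the list of innate defence too, and Zg16 on that of goblet cells, so the sum does not measure pancreas tissue alone. Of the adipocyte markers Adipoq, Retn and Lep none reached 20 on any fed array, and the red cell markers Hba-a1, Hbb-b2, Alas2, Slc4a1 and Epb42 did not exceed 14.1. Other adipocyte genes were measured, and these 5 summed to 754.4 to 977.5 in wild-type and 485.2 to 861.1 in PPARα-null mice. Whether fat tissue was present was not tested. The genes given with a value of their own in this paragraph were chosen after their values had been seen. Without PPARα-null fed replicate 3, 116 genes were higher and 125 lower, and without wild-type fed replicate 2 the numbers were 89 and 116.

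In fed PPARα-null mice 204 of 5931 measured genes were called, which is 3.44%. Of these 120 were lower (2.02%) and 84 were higher (1.42%), and no gene had probe sets called in opposite directions. The falls were the larger changes. They had a median of 1.48-fold and reached 6.55-fold, and 18 of them exceeded 2-fold, while the rises had a median of 1.4-fold, reached 5.2-fold and exceeded 2-fold for 6 genes. With Benjamini-Hochberg adjustment over all measured probe sets, 37 of the lower and 6 of the higher genes also had an adjusted p under 0.05. The called probe sets of 9 lower and 2 higher genes overlapped between the groups, and 16.6% of all measured probe sets showed no overlap. The median log2 difference over the measured probe sets was 0.03. With quantile normalization of the fed arrays the split was 66 higher and 151 lower, and with each array centred on its median it was 103 and 114.

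**Figure D1:**
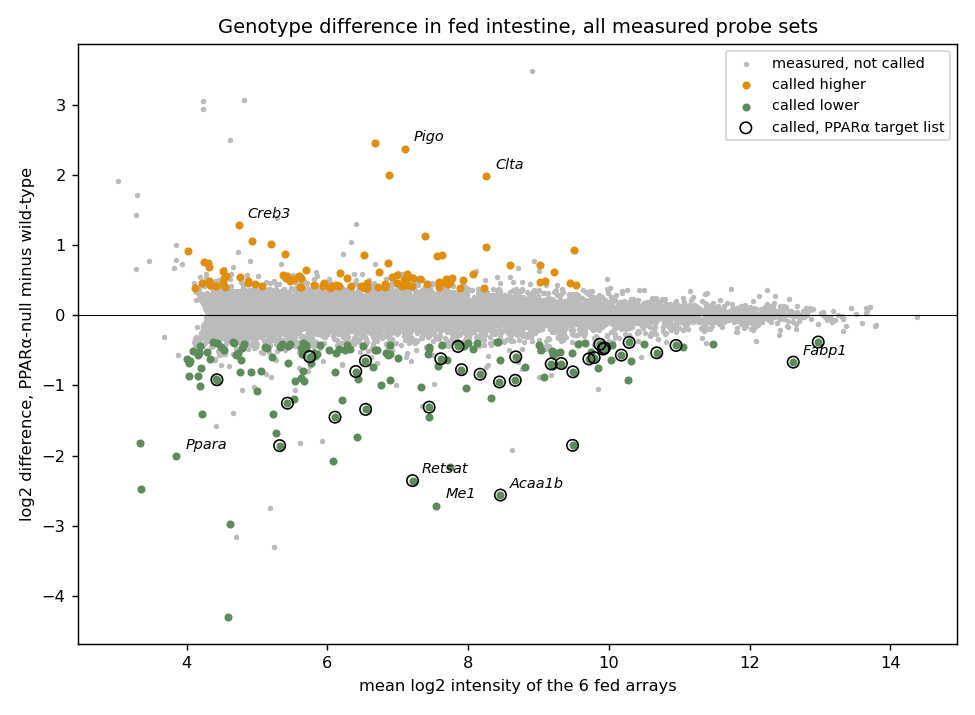
Log2 difference between PPARα-null and wild-type fed mice (vertical axis) against the mean log2 intensity of the 6 fed arrays (horizontal axis), with 1 point for each of the 9560 measured probe sets. Probe sets called higher are orange, those called lower are green, and black circles mark called genes of the PPARα target list; most circles lie well below 0, and the highest orange points are a probe set unnamed here (2.45), Pigo (2.38), Ighm (2.0) and Clta (1.99).

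Ppara itself was lower in PPARα-null mice. Its probe set had intensities of 19.9, 34 and 35.9 in wild-type and 6.84, 7.5 and 7.35 in PPARα-null mice. All 3 PPARα-null arrays lay below all wild-type arrays, and the log2 difference was −2.0 (standard error 0.23, limma adjusted p = 9.19e-04). The PPARα-null values lay under the median of the arrays, so the size of this fall may be understated. The signal was weak in wild-type intestine as well, and which part of the gene was targeted, and whether the probes lie in it, is stated in no source used here. To see whether genes beside Ppara differed too, the 10 nearest array genes on each side of it in the RefSeq order of the GRCm38.p6 assembly were examined. Of these 20 neighbours 10 were measured and none was called in limma, nor had any an unadjusted p under 0.05, and their differences ranged from −0.14 to 0.32. Among all measured genes 3.44% were called and 15.2% had an unadjusted p under 0.05 in limma. With only 10 genes measured, the absence of calls cannot show whether this stretch differed between the substrains. Among 13 measured receptors, partners and cofactors of the PPAR family, Ppara alone was called. Pparg, the adipocyte isotype, had a difference of 0.10 and Rxra, the partner receptor, one of 0.14.

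Many known targets of PPARα were lower, among a list that was written from general knowledge, with earlier results of these data known. The list held 75 genes, of which 67 were on the array and 49 were measured. Of these 24 (49%) were lower and none was higher, against 2.02% lower and 1.42% higher among all measured genes, and the median difference was −0.35, against 0.05 over all measured genes. Of the 49, 41 had a value below 0. The falls of the 24 genes ranged from 1.35-fold to 5.91-fold with a median of 1.61-fold. In 23 of the 24 genes the 3 PPARα-null arrays lay below the 3 wild-type arrays, Crat being the exception, and 18 of them had an adjusted p under 0.05. Among all 120 lower genes, 9 overlapped and 37 had such an adjusted p. A call by itself favours groups that do not overlap, so the separation adds little to the calls. The summed intensity of the list was between 61880 and 67470 in wild-type and between 55390 and 56560 in PPARα-null mice. Leaving out single arrays gave 22 to 24 lower genes, with 22 when PPARα-null fed replicate 3 or wild-type fed replicate 2 was left out.

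**Figure D2:**
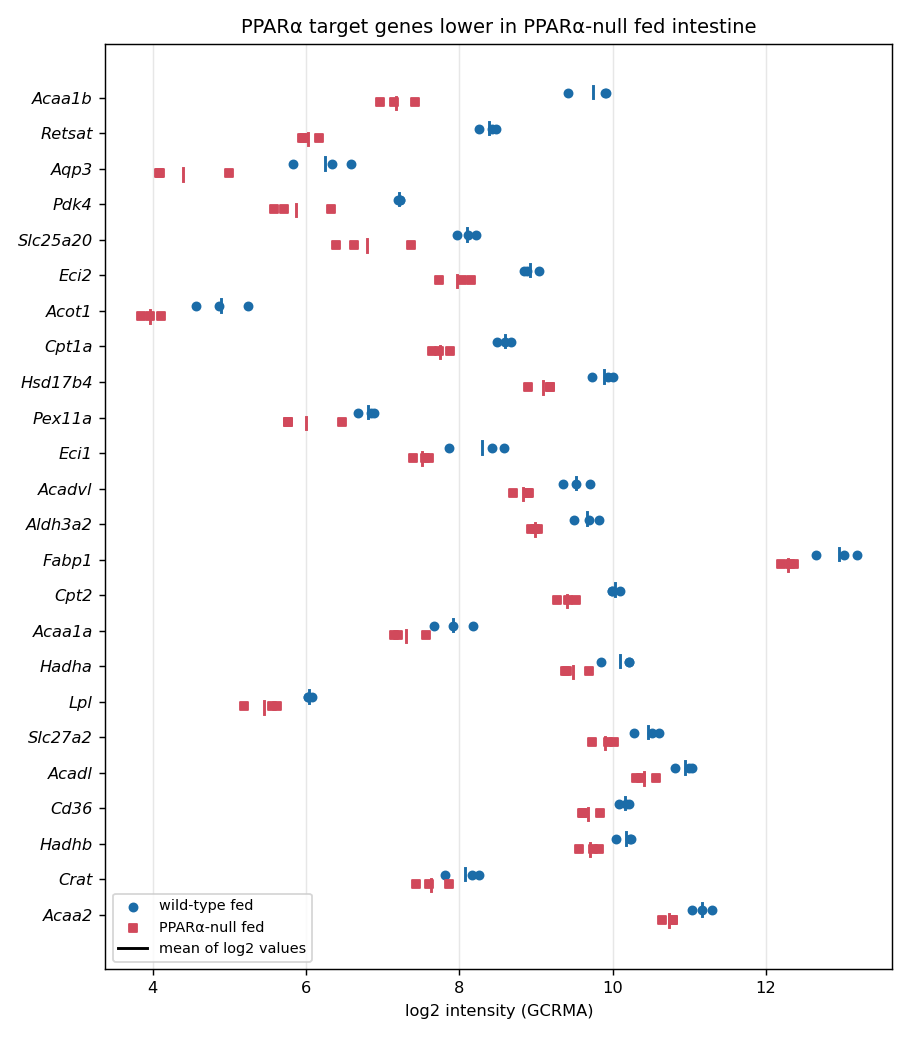
Log2 GCRMA intensity (horizontal axis) of the 24 genes of the PPARα target list that were lower in PPARα-null fed mice, each with the called probe set of largest difference. Circles are the 3 wild-type and squares the 3 PPARα-null fed arrays, and vertical bars are means of the log2 values; the 2 groups overlap for Crat alone, and Acaa1b at the top has the largest fall (5.91-fold).

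For 40 of the 49 measured targets RefSeq gave a promoter window, from 250 bases before to 50 bases after the start of the gene. These windows were searched on both strands for the direct repeat that PPAR and RXR bind, which is AGGTCA written 2 times with 1 base between, allowing 2 mismatches in the 12 fixed bases. A match was found for 6 of the 40 genes (15%), 3 of 20 that were lower and 3 of 20 that were not called, against 4.4% of all 27025 genes with a window and 3.86% of all 32851 windows of the same length. The lower genes with a match were Fabp1, Cd36 and Slc25a20. The matches in Fabp1 and Cd36 are shown with 25 bases on either side, in the direction of the gene, with the match in capitals. In both the repeat is read on the opposite strand. For Slc25a20 the match lies just inside the transcript, so that its 13 bases alone are given.
Fabp1 (GRCm38.p6, chr6:71199787-71199849, + strand, 1 mismatch): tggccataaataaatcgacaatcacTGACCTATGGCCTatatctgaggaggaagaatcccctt
Cd36 (GRCm38.p6, chr5:17835922-17835984, − strand, 2 mismatches): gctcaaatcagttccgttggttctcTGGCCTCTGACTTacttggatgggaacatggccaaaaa
Slc25a20 (2 mismatches): AGGTGAAAGGTCG
A match describes letters in the window and not a bound site.

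Of the 25 measured genes listed for peroxisomes, which shorten very long chains, 4 were lower (16%), against 2.02% of all measured genes. These falls included the largest among called targets with a probe set of their own. Hsdl2, Pxmp4 and Dhrs4, peroxisomal proteins that were not on this list, were lower too and are given further below. So was Slc27a2, which the study places in peroxisomes and the endoplasmic reticulum. Acaa1b, a thiolase of the last step of peroxisomal β-oxidation, had intensities of 681, 962 and 956 in wild-type and 141, 171 and 125 in PPARα-null mice. The highest PPARα-null array was far below the lowest wild-type array, and the difference was −2.56 (standard error 0.16, adjusted p = 2.31e-06). The closely related Acaa1a, which can share probes with Acaa1b, had 204, 241 and 289 against 189, 147 and 141, a difference of −0.62 (standard error 0.16, adjusted p = 0.131). Its groups were separated by a narrow gap, and the call ended without PPARα-null fed replicate 3 or wild-type fed replicate 3. Hsd17b4, the bifunctional enzyme that acts before the thiolase, fell from 850, 1028 and 982 to 579, 582 and 477, with a difference of −0.81 (adjusted p = 0.00317). Pex11a, a protein of peroxisome division, had differences of −0.80 and −0.65 with its probe sets. Of 25 measured genes on the peroxisomal list these 4 were lower and none was higher, and the median difference was −0.08. Ehhadh, the other bifunctional enzyme, had 837, 722 and 870 against 850, 878 and 746, which overlapped, with a difference of 0.03. Abcd3, which imports acyl-CoA into peroxisomes, had 1783, 1893 and 1924 against 1484, 1463 and 1494, without overlap, but its difference of −0.33 was under the fold of 1.3.

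The carnitine shuttle, which carries long-chain fatty acids into mitochondria, was lower at each step across the mitochondrial membranes. Cpt1a, which forms acylcarnitine at the outer membrane and limits the rate of the pathway, had 361, 388 and 408 in wild-type and 199.6, 213 and 235 in PPARα-null mice. The groups were well separated, and the difference was −0.84 (standard error 0.10, adjusted p = 9.19e-04). The other measured probe sets of Cpt1a gave −0.29 and −0.36 and were not called. Slc25a20, the carrier of acylcarnitine across the inner membrane, had 276, 298 and 251 against 83.6, 98.9 and 165, a difference of −1.31 (standard error 0.20, adjusted p = 0.00682), and a second probe set gave −0.93. Cpt2, which returns the acyl group to CoA, fell from 1019, 1014 and 1099 to 622, 683 and 735 (−0.62, adjusted p = 0.00203). Crat, which acts on short chains, had 225, 287 and 306 against 233, 194 and 173. Its groups overlapped, its difference was −0.44, and its call ended without wild-type fed replicate 2 or 3 and without PPARα-null fed replicate 2 or 3. Slc22a5, which brings carnitine into the cell, had differences of −0.69 and −0.35 with its probe sets and did not pass the test.

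In the mitochondrial matrix the enzymes for long chains were lower, while several of their neighbours in the pathway were not called. Acadvl, the dehydrogenase for very long chains, had 653, 739 and 834 against 479, 418 and 476, a difference of −0.69 (standard error 0.10, adjusted p = 0.0065). Acadl, the long-chain dehydrogenase, had 1807, 2041 and 2090 against 1267, 1318 and 1520, a difference of −0.53 (adjusted p = 0.0246). In both genes every PPARα-null array lay below every wild-type array. The subunits of the trifunctional protein, which carries out the next steps on long chains, fell too, Hadha by 0.60 (adjusted p = 0.0379) and Hadhb by 0.46 (adjusted p = 0.0477) on the log2 scale. These 2 genes lie side by side in the genome. Eci1 and Eci2, isomerases for unsaturated chains, had differences of −0.77 and −0.95. Eci1 had 234, 345 and 384 against 195, 187 and 169, and Eci2 had 458, 527 and 472 against 262, 213 and 284. Acaa2, the thiolase of mitochondria, had −0.43, with a call that ended without wild-type fed replicate 2, and Acad11, another acyl-CoA dehydrogenase, had −0.50 and −0.40. Acadm, the medium-chain dehydrogenase, gave 881, 869 and 901 against 904, 888 and 900.3, a difference of 0.02, and its groups overlapped. The most abundant gene of the list, Hadh, which acts on shorter chains, had 8323, 8566 and 8176 against 8777, 8225 and 8820, and Decr1, an auxiliary reductase, had a difference of −0.04. In all, 12 of 24 measured genes of mitochondrial β-oxidation and the carnitine shuttle were lower and none was higher, with a median difference of −0.37.

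Lower signals were also found for proteins that take up and bind fatty acids. Fabp1, an abundant fatty acid binding protein of liver and proximal intestine, had 9301, 6452 and 8319 in wild-type and 4674, 5074 and 5256 in PPARα-null mice with 1 probe set, a difference of −0.67 (standard error 0.13, adjusted p = 0.0351). Its other probe set gave 8426, 9264 and 9930 against 6800, 6813 and 7581, or −0.38. Neither probe set overlapped between the groups. Cd36, a fatty acid receptor of the brush border, had 1188, 1087 and 1160 against 910, 781 and 776, a difference of −0.48 (adjusted p = 0.0887), while other probe sets of it gave −0.27 and −0.01 and were not called. Slc27a2, a transporter that also activates very long chains, fell from 1237, 1456 and 1556 to 1034, 851 and 979 (−0.57, adjusted p = 0.0333). These 3 were the called genes of 14 measured for fatty acid uptake, binding and activation, whose median was −0.27. Fabp2, the intestinal binding protein, had 11110, 11319 and 10770 against 9272, 9139 and 9996, without overlap, but its difference of −0.23 was under the fold of 1.3. Acsl5, an abundant acyl-CoA synthetase, had −0.14.

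The remaining called targets have other tasks. Retsat, which saturates retinol and is named for it, had 305, 345 and 358 in wild-type and 61.9, 63.1 and 71.8 in PPARα-null mice with 1 probe set, and 1211, 1349 and 1545 against 381, 377 and 372 with the other. The differences of −2.36 (standard error 0.14, adjusted p = 1.68e-06) and −1.85 were among the largest of the whole comparison. Aqp3, a channel for water and glycerol, was lower with 3 probe sets, the strongest from 56.8, 81 and 96.3 to 17, 17.1 and 32 (−1.86, adjusted p = 0.0115). Its neighbour in the genome, Aqp7, a channel of the same kind chosen after its values had been seen, was lower as well, by −0.86 and −0.62. Pdk4, a kinase that turns off pyruvate dehydrogenase when fat is burned and the called gene of 10 for ketone bodies and such kinases, had 149, 150.05 and 147 against 52.4, 80.3 and 48, a difference of −1.34 (adjusted p = 0.021). Aldh3a2, which oxidizes fatty aldehydes, fell by 0.69 (adjusted p = 0.0104). Acot1, an acyl-CoA thioesterase of the cytosol, had a weak signal of 23.7, 29.2 and 37.8 against 17.2, 14.4 and 15.6 (−0.92, adjusted p = 0.0155). Lpl, the lipase of lipoprotein triglycerides, fell from 65.4, 64.9 and 67.6 to 46.9, 36.4 and 49.5 (−0.59, adjusted p = 0.172), a call that ended without PPARα-null fed replicate 2 or wild-type fed replicate 3. The values of Cpt2, Crat, Acadvl, Acadl, Hadha, Hadhb, Acaa2, Acad11 and Aldh3a2 had been seen before these genes were chosen to be named.

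Probe sets that list several genes could not name one. That for Cyp4a10 and Cyp4a31, fatty acid ω-hydroxylases whose genes are classical targets of PPARα, showed the largest measured fall. It had 43.7, 165 and 166 in wild-type and 5.96, 5.94 and 4.47 in PPARα-null mice, a difference of −4.29 (standard error 0.39, adjusted p = 9.05e-05). Wild-type fed replicate 1 was well below the other wild-type arrays but still far above the PPARα-null arrays. The PPARα-null values were under the median of the arrays, so the size of the fall is at best a lower bound. The probe set for Acot1 and Acot2 had a difference of −1.41, and those for Acaa1a and Acaa1b had −0.64 and −0.45. Of the probe sets unnamed here, that with the largest fall had 42.4, 91.2 and 83.7 against 7.63, 9.16 and 9.55 (−2.97), to which the same applies, and that with the largest rise had 41.7, 40.4 and 50.4 against 248, 249 and 225 (2.45).

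The other 25 measured targets were not called. Their differences ranged from −0.35 to 0.23, and 17 of them were below 0. Plin2, which coats lipid droplets, had 596, 600.04 and 638 against 561, 534 and 574, a difference of −0.14. Angptl4, an inhibitor of lipoprotein lipase, had 84.4, 104 and 128 against 93.6, 157 and 80.7. The groups of Angptl4 overlapped widely, and its difference was 0.02. Cidec, a protein of lipid droplets, had −0.02.

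Other genes of lipid metabolism that were lower belong mainly to the making of fatty acids. Me1, the malic enzyme that supplies NADPH for this synthesis, had 295, 593 and 628 in wild-type and 63.6, 58.3 and 105 in PPARα-null mice. The groups were far apart, and the difference of −2.71 (standard error 0.37, adjusted p = 0.00317) was the largest fall of any single named gene. Scd2, a desaturase that makes monounsaturated fatty acids, fell from 59.1, 80.3 and 70.5 to 30, 32.3 and 10.5 (−1.68, adjusted p = 0.0379), and with a second probe set by 1.18. Scd1, which lies next to Scd2, had 119, 150.4 and 151 against 18.1, 21.9 and 89.3, a difference of −2.08 (standard error 0.59, adjusted p = 0.176). One of its PPARα-null arrays was close to the wild-type arrays, and the call ended without PPARα-null fed replicate 1 or 2 or wild-type fed replicate 2 or 3. Fads2, a desaturase of polyunsaturated fatty acids, had −0.53 with 1 probe set and −0.02 with the other. Thus 4 of 13 measured genes of fatty acid synthesis and desaturation were lower. Acly, which supplies cytosolic acetyl-CoA, had 460, 444 and 481 against 438, 378 and 362 with its most abundant probe set, a difference of −0.24 that did not pass. Of 18 genes of cholesterol synthesis none was called in limma and 2 had an unadjusted p under 0.05, and Hmgcs1, an early enzyme of that pathway, had 0.13. Of 20 genes of triglyceride synthesis, droplets and lipolysis, Lpl and G0s2, an inhibitor of lipolysis, were lower. G0s2 had 16.7, 27.4 and 38.2 against 12.3, 15.2 and 11.5 (−1.01, adjusted p = 0.102).

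No gene of chylomicron assembly was called in limma out of 14 measured, 2 had an unadjusted p under 0.05, and their median was 0.06. Apoa1 and Apoa4, apolipoproteins that leave the enterocyte on chylomicrons, gave intensities between 11879 and 14357 with their brightest probe sets. Their differences were 0.07 to 0.12 and 0.03 to 0.04. Apoc3, another apolipoprotein, had 5620, 5374 and 5720 against 7095, 7191 and 5441, which overlapped, and a difference of 0.23.

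**Figure D3:**
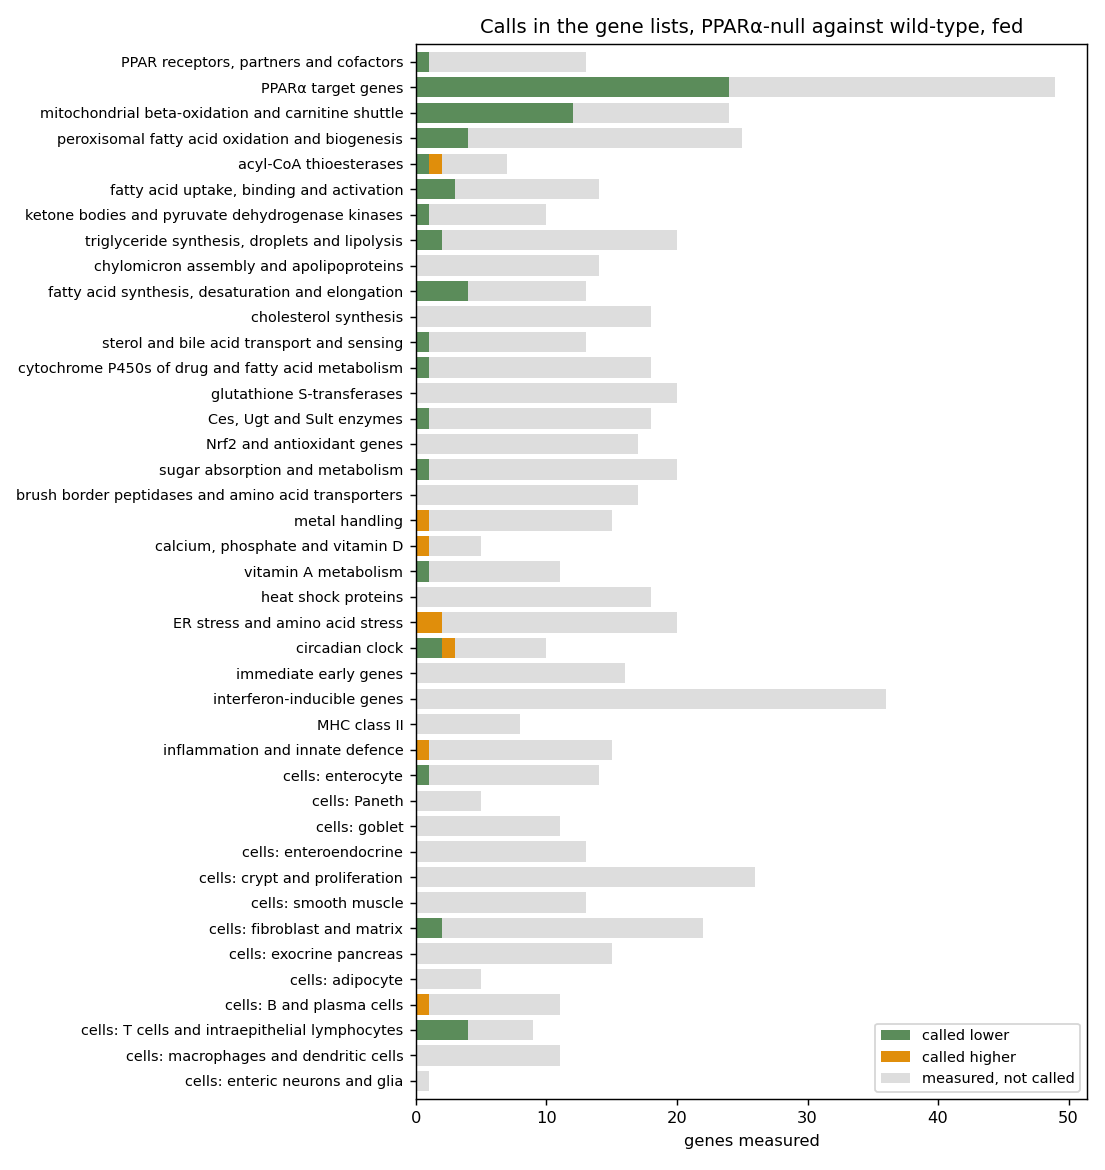
Number of measured genes (horizontal axis) in each gene list, split into those called lower (green), called higher (orange) and not called (grey) in PPARα-null against wild-type fed mice. Green fills close to 50% of the bars of the PPARα target and mitochondrial β-oxidation lists, and most other bars are grey or nearly so.

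Outside lipid metabolism several lists held no call, while 3.44% of all measured genes were called. None was called among 20 glutathione S-transferases, 17 Nrf2 and antioxidant genes, 17 brush border peptidases and amino acid transporters, 18 heat shock proteins, 16 immediate early genes, 36 interferon-inducible genes and 8 genes of MHC class II. An unadjusted p under 0.05 in limma was found for 13 of these 132 list members, or 9.85%, against 15.2% of all measured genes. The 2 shares are not alike, since these lists were grouped for having no call, while all measured genes include the called ones. By list the share went from 0 of 18 heat shock proteins to 4 of 17 brush border peptidases and amino acid transporters (23.5%). Gstp1, an abundant glutathione S-transferase, had 4594, 5205 and 5511 against 4882, 5036 and 5586. Anpep, a peptidase on the enterocyte surface, had 4588, 4924 and 4986 against 4870, 4826 and 4852. In both genes the groups overlapped, with differences of 0.02 and 0.01. Differences of −0.14 to 0.02 were found for B2m and of −0.19 to −0.08 for H2-Ab1, which encode parts of MHC class I and class II. Of 18 measured genes on the list of cytochrome P450s, which also holds receptors that regulate them, Cyp2c65, of a family that oxidizes drugs and arachidonic acid, fell from 1615, 1598 and 1561 to 949.9, 1220.05 and 899 (−0.65, adjusted p = 0.0727), and Cyp3a11, a drug-metabolizing P450, had 0.03. Single calls were made for the carboxylesterase Ces1e (−0.53) of 18 conjugating and hydrolysing enzymes, the gluconeogenic enzyme Pck1 (−0.53) of 20 sugar genes, and the lipoprotein receptor Scarb1 (−0.80) of 13 sterol genes. None of these 3 had an adjusted p under 0.05. The call of Ces1e ended without any 1 of wild-type fed replicates 1 and 2 and PPARα-null fed replicates 1 and 3, that of Pck1 without PPARα-null fed replicate 3 or wild-type fed replicate 3 (−0.35 without the latter), and that of Scarb1 without any 1 of wild-type fed replicates 2 and 3 and PPARα-null fed replicates 1 and 2. Among 11 genes of vitamin A metabolism Retsat was lower, and Rbp2, the retinol binding protein of enterocytes, had −0.20.

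Some of the largest falls had no place on the lists. Glo1, which detoxifies methylglyoxal, was lower with 3 probe sets, one of them from 332, 363 and 387 in wild-type to 186, 189 and 155 in PPARα-null mice (−1.03, standard error 0.11, adjusted p = 5.41e-04). Hsdl2, a dehydrogenase-like protein of peroxisomes, fell from 73.4, 60.5 and 76 to 38.6, 24.4 and 30.4 (−1.19, adjusted p = 0.01). Car4, a carbonic anhydrase of the cell surface, had 624, 771 and 802 against 336, 356 and 526 (−0.87, adjusted p = 0.0298), and Adgrd1, an adhesion G protein-coupled receptor, had 67.3, 68.7 and 65.8 against 35.3, 39.6 and 33.5 (−0.90, adjusted p = 0.0202). That the groups of these 4 genes did not overlap was a condition for naming them. Further falls are named here after their values had been seen, and they are a selection. Car1 had −2.48 and Akr1b8 −1.41. Neither met both conditions for the largest falls, an adjusted p under 0.05 and groups without overlap. Egln3, an oxygen-sensing prolyl hydroxylase, had −1.44 and −0.91 with its probe sets, and Bnip3, a mitochondrial protein that hypoxia induces, had −0.80. Pank3, a kinase of CoA synthesis, had −1.08 and −0.43. Pxmp4, a peroxisomal membrane protein, had −0.94, and Dhrs4, a peroxisomal carbonyl reductase, had −0.53 and −0.49. Hsd17b11, a dehydrogenase found on lipid droplets, had −0.41, a call that ended without wild-type fed replicate 2.

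The largest rise of a named gene was that of Pigo, and Pigo, Clta and Creb3 stood on none of the lists. Pigo, an enzyme that builds glycosylphosphatidylinositol anchors, had 61.6, 64.8 and 54.3 in wild-type and 321, 296 and 319.6 in PPARα-null mice. The groups were far apart, with a difference of 2.38 (standard error 0.14, adjusted p = 1.68e-06). Clta, a clathrin light chain, had 143, 242 and 105 against 609, 549.6 and 675 (1.99, adjusted p = 0.00101), and Creb3, a transcription factor anchored in the endoplasmic reticulum, had 17.9, 15.8 and 17.6 against 40.7, 35.9 and 49.5 (1.28, adjusted p = 5e-05). In each of these 3 genes the probe sets differed among themselves. Other probe sets gave 0.86 and −0.05 for Pigo, 0.22 for Clta, and −0.35 and −0.15 for Creb3. Pigo, Creb3 and Clta lie on the same chromosome in the order of GRCm38.p6, with 11 array genes between Pigo and Creb3, of which 7 were measured and none was called, and 11 between Creb3 and Clta, of which 1 was measured. Aqp3, which was lower, lies on that chromosome with 15 array genes between it and Pigo.

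Chka, a choline kinase of phospholipid synthesis, rose from 188, 245 and 222 to 395, 379.5 and 514 (0.97, adjusted p = 0.0065). Npl, a lyase of sialic acid breakdown, rose from 38.1, 29.8 and 27 to 50.6, 59.8 and 61.6 (0.87, adjusted p = 0.00884), and Tmem140, a membrane protein, from 136, 177 and 115 to 240, 256 and 257 (0.84, adjusted p = 0.0457). These 3 were named among the largest rises, for which an adjusted p under 0.05 and groups without overlap were required. Acot9, a mitochondrial thioesterase, was higher by 0.51 and was, beside Acot1, the called gene of 7 measured thioesterases. The next 2 genes were named after their values had been seen. Pfkfb3, a regulator of glycolysis, had 25.1, 24.1 and 28.9 against 43.1, 87 and 38.4 (1.01, adjusted p = 0.114), with a difference of 0.65 without PPARα-null fed replicate 2. Egfr, the receptor of epidermal growth factor, had 0.92 with 1 probe set and 0.07 with another.

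Calls upward were found for 1 of 5 genes of calcium and phosphate and 1 of 15 of inflammation and innate defence. They were also found for 2 of 20 genes of endoplasmic reticulum and amino acid stress and 1 of 15 of metal handling. Among all measured genes 1.42% were higher, and these lists are grouped here for holding a rise. Slc34a2, the phosphate carrier of the brush border, had 797, 606 and 299.5 in wild-type and 1113, 945 and 943 in PPARα-null mice, a difference of 0.93 (standard error 0.26, adjusted p = 0.172). It was 0.52 without wild-type fed replicate 3, and the call ended without PPARα-null fed replicate 1. Il18, an epithelial cytokine, had 106, 173 and 177 against 229.6, 252 and 332 (0.86, adjusted p = 0.157), with a call that ended without PPARα-null fed replicate 3 or wild-type fed replicate 1. Ddit3, a transcription factor of the stress response, had 34.4, 39.1 and 38.8 against 42.3, 71.2 and 48.4 (0.49, adjusted p = 0.221), and Canx, a chaperone of the endoplasmic reticulum, had 0.50 with 1 weak probe set and −0.02 and −0.03 with stronger ones. The call of Ddit3 ended without any 1 of wild-type fed replicates 1, 2 and 3 and PPARα-null fed replicate 2 (0.27 without the last), and that of Canx without any 1 of wild-type fed replicates 1 and 3 and PPARα-null fed replicates 2 and 3. Hspa5, the main chaperone of that compartment, had 0.04. Atp7a, a copper pump, had 0.42 with a probe set near the level of 20 and −0.04 with a stronger one, and the call ended without PPARα-null fed replicate 3 or wild-type fed replicate 1.

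**Figure D4:**
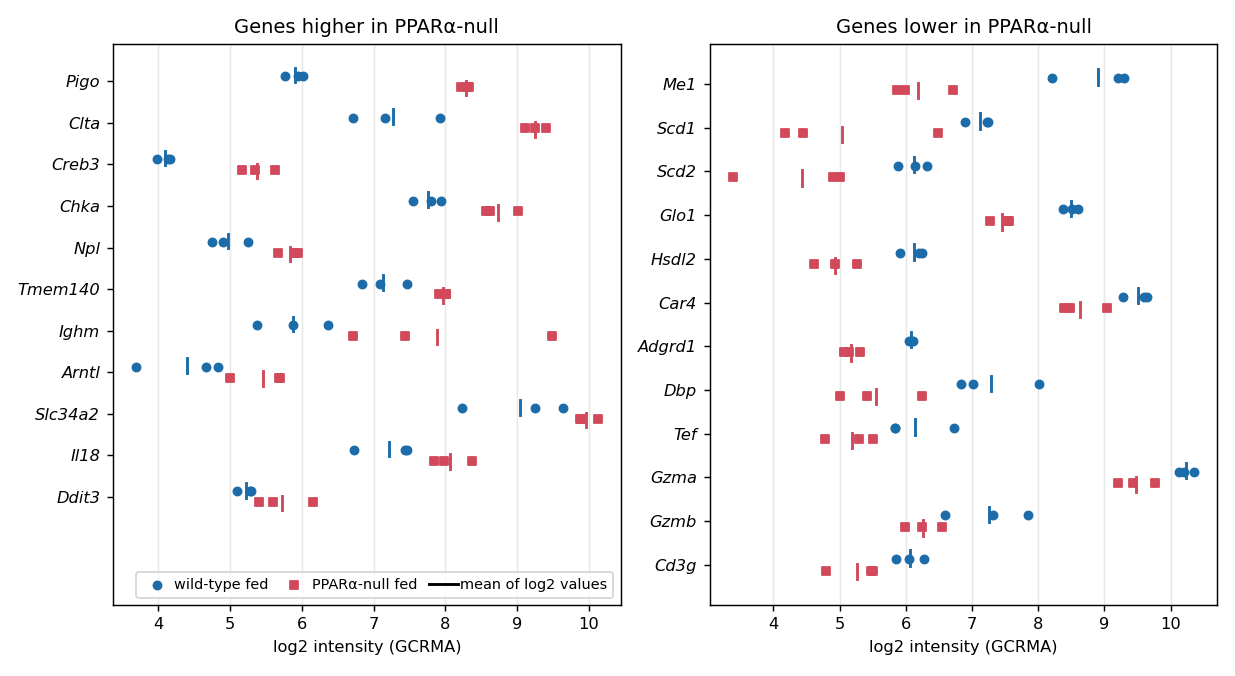
Log2 GCRMA intensity (horizontal axis) of genes outside the PPARα target list that were higher (left) or lower (right) in PPARα-null fed mice, each with the called probe set of largest difference. Circles are the 3 wild-type and squares the 3 PPARα-null fed arrays, and vertical bars are means of the log2 values; Pigo and Clta show wide gaps between the groups, while a single array lies far from the others of its group for Ighm, Dbp and Scd1.

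Cells of the gut run a circadian clock that follows feeding, and of 10 measured clock genes 3 were called. Arntl, an activator of the clock, had 28.5, 25.4 and 12.9 in wild-type and 51.1, 51.9 and 32 in PPARα-null mice (1.06, adjusted p = 0.114). Dbp and Tef, transcription factors that the clock drives, were lower. Dbp had 114, 129 and 259 against 32, 75.7 and 42.5 (−1.74, adjusted p = 0.0612) and Tef 57.1, 57.2 and 106 against 27.6, 39.1 and 45.6 (−0.94, adjusted p = 0.127). Wild-type fed replicate 3 was the lowest array for Arntl and the highest for Dbp and Tef. Without that array the differences of Arntl and Tef were 0.71 and −0.64, and both were still called, whereas the call of Tef ended without PPARα-null fed replicate 1. Nr1d1 and Nr1d2, repressors of the clock, had −0.72 and −0.58 and did not pass. The number of lower clock genes was 1 without PPARα-null fed replicate 1 and 4 without PPARα-null fed replicate 3. According to the study's methods fasting began with the light phase, and its tables label fed mice as the start of fasting, but no clock hour is given for either genotype in the sources used here.

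Of 22 markers of T cells and intraepithelial lymphocytes on the array 9 were measured, 4 of these were lower and none higher, and the median difference of the 9 was −0.48. Gzma, a granzyme of cytotoxic lymphocytes, had 1113, 1312 and 1175 in wild-type and 869, 693 and 592 in PPARα-null mice (−0.76, standard error 0.14, adjusted p = 0.0286). Gzmb, another granzyme, had 96.1, 230.1 and 159.9 against 93.7, 63.7 and 76.1 (−0.99, adjusted p = 0.127). Cd3g, a chain of the T cell receptor complex, had 66.3, 77.8 and 57.5 against 45.6, 44.4 and 27.7 (−0.80, adjusted p = 0.236), and Cd8a, a coreceptor, had −0.43 with the probe set called and −0.34 with the other. The groups of the Cd8a probe set that was called overlapped, and those of Gzma, Gzmb and Cd3g did not. Values of Cd3d, another chain of the complex, Itgae, an integrin of intraepithelial lymphocytes, and Ccl5, a chemokine of T cells, were −0.55, −0.44 and −0.48 and did not pass. Lat, an adaptor of the T cell receptor, had 32.2, 39.3 and 33 against 41, 35.1 and 32.8, which overlapped, with a difference of 0.06. Cd3e, which defines T cells, was under 20 in both groups, at 12.1 to 14.4 and 10.2 to 11. The summed intensity of the list was 1941 to 2422 in wild-type and 1143 to 1605 in PPARα-null mice. A probe set for Trgv2 and Trgv4, of the γδ receptor, was lower by −0.74. Cd52 and Itgb2, leukocyte surface proteins chosen after their values had been seen, had −0.55 and −0.67. In RNA of whole tissue, fewer cells of a type and less RNA per cell cannot be told apart. These calls were not all stable. The list had 2 lower genes without any 1 of wild-type fed replicates 1 and 2 and PPARα-null fed replicates 2 and 3. The call of Gzmb ended without PPARα-null fed replicate 2, that of Cd3g without PPARα-null fed replicate 3 or wild-type fed replicate 1 or 2, that of Cd8a without PPARα-null fed replicate 2 or 3 or wild-type fed replicate 1, and that of Cd52 without PPARα-null fed replicate 1 or wild-type fed replicate 1 or 2. The called probe set of Cd8a was near the level of 20, with 21.1, 25.3 and 17.8 against 18.2, 14.2 and 14.9. Its mean fell under that level without wild-type fed replicate 2, and its call held in 8 of the 19 settings that tested it. Gzma was called in all 23 alternative settings.

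The lists of other cell types held at most 2 calls each, while 3.44% of all measured genes were called. Among 11 measured genes of B and plasma cells Ighm, the heavy chain of IgM, was higher, with 82.2, 59 and 41.4 in wild-type and 173, 105 and 714 in PPARα-null mice (2.0, standard error 0.53, adjusted p = 0.153). PPARα-null fed replicate 3 was far above the other arrays, without it the difference was 1.20, and the call ended without wild-type fed replicate 3. Igha, the far more abundant heavy chain of IgA, had −0.07 to −0.06. In the list of fibroblasts and matrix all 22 measured genes had values below 0, with a median of −0.24, and 2 were called, the collagens Col6a2 (−0.59) and Col18a1 (−0.41). Fn1, fibronectin, had 107, 146 and 145 against 95.6, 73.1 and 79.6, a difference of −0.67 that did not pass. The call of Col18a1 ended without PPARα-null fed replicate 2 or wild-type fed replicate 3, either of which left 1 called gene in the list, and without wild-type fed replicate 1 there were 5. All 13 smooth muscle genes were below 0 too, with a median of −0.18, none called and 1 with an unadjusted p under 0.05 in limma, and Acta2, smooth muscle actin, had −0.04. None was called among 5 Paneth, 11 goblet, 13 enteroendocrine and 26 crypt and proliferation genes, of which 3 had an unadjusted p under 0.05 in limma. Nor was any called among 11 genes of macrophages and dendritic cells, of which none had an unadjusted p under 0.05, while genes of mast cells and granulocytes were not measured. Lyz1, the lysozyme of Paneth cells, had 15788, 14203 and 14857 against 14127, 12662 and 13796. Tff3, a peptide of goblet cells, had 8815, 9562 and 8823 against 9535, 9717 and 9188. Gip and Chgb of endocrine cells had 0.16 and 0.13, and Pcna of dividing cells had 0.06. Of 14 enterocyte genes Fabp1 was called, and Lct, the lactase of the brush border, had 0.11. Reg3b, an antibacterial lectin, had 0.13. Of 5 measured fat cell genes none was called in limma, but 2 (40%) had an unadjusted p under 0.05, against 15.2% of all measured genes. Car3, a carbonic anhydrase of adipocytes, had 86.6, 109 and 154 against 15.1, 15.6 and 148, and Fabp4, the fatty acid binding protein of adipocytes, had 476, 412 and 478 against 254, 301 and 445. The summed intensity of 5 measured adipocyte genes was 754.4 to 977.5 in wild-type and 485.2 to 861.1 in PPARα-null mice, and its part in the values of Lpl, Cd36, Aqp7 or G0s2 was not tested.

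The same genotype difference was measured in other mice that had been fasted for 24 h. The wild-type fasted arrays carry a description that names knockout mice, but their titles and strain name wild-type mice, and they were grouped by title. Ppara had a difference of −1.90 between these fasted groups, lower in the PPARα-null arrays. In fasted mice 944 of 5744 measured genes were higher (16.4%) and 1129 were lower (19.7%) in PPARα-null mice. Of the 120 genes lower in fed mice, 111 were measured in fasted mice, and 55 of these were lower again, 10 were higher, 45 were not called and 1 had probe sets called in both directions. The 55 are 45.8% of the genes lower in fed mice and 4.87% of those lower in fasted mice. Of the 84 genes higher in fed mice, 80 were measured in fasted mice, with 23 higher again, 16 lower, 39 not called and 2 in both directions, and the 23 are 27.4% of the genes higher in fed and 2.44% of those higher in fasted mice. Without PPARα-null fed replicate 3 this number was 36. Of the 24 targets that were lower in fed mice 18 were lower in fasted mice, 1 was higher and 5 were not called. The genotype difference itself differed between fed and fasted mice, at an adjusted p under 0.05 in limma, for 1810 of 6107 genes (29.6%).

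Several genes had closely similar differences in both feeding states. Ppara had −2.0 in fed and −1.90 in fasted mice, and Me1 had −2.71 and −2.88. Retsat had −2.36 and −2.16, Clta 1.99 and 1.87, and Chka 0.97 and 0.91. None of these 5 had an adjusted p under 0.05 for the difference between feeding states. Targets of PPARα departed in both directions. Cpt1a fell in fed mice by 0.84 but had −0.18 in fasted mice (adjusted p of the difference = 0.00498), and Acaa1b fell by 2.56 and 1.69 (adjusted p = 0.0171). Eci1, by contrast, fell by 0.77 in fed and by 1.75 in fasted mice (adjusted p = 0.00749), and Cpt2 by 0.62 and 1.13 (adjusted p = 0.00714). The sign of Pdk4 turned, from −1.34 in fed to 1.18 in fasted mice (adjusted p = 2.48e-04). For the probe set of Cyp4a10 and Cyp4a31 the differences were −4.29 and −6.07, both against PPARα-null values under 20. Of the 25 targets not called in fed mice, 6 were lower and 5 higher in fasted mice, and 14 were called in neither state. Ehhadh and Acadm were among the 6, with −0.50 and −0.45 in fasted mice. Tmem140, Kmt5b, Cflar and Hikeshi each had a probe set that was higher in fed and lower in fasted PPARα-null mice, whereas other probe sets of Kmt5b and Cflar were higher in fasted mice (1.17 and 1.0). The differences of the former were 0.84 and −2.35 for Tmem140, 0.42 and −1.90 for Kmt5b, a histone methyltransferase, 0.42 and −1.88 for Cflar, an inhibitor of caspase activation, and 0.41 and −1.66 for Hikeshi, a nuclear import factor of Hsp70. In fed mice the calls of these genes other than Tmem140 were fragile. That of Kmt5b ended without PPARα-null fed replicate 1 or wild-type fed replicate 1 or 2, that of Cflar without any 1 of wild-type fed replicates 1 and 2 and PPARα-null fed replicates 1 and 2, and that of Hikeshi without PPARα-null fed replicate 3 or wild-type fed replicate 1. Fed and fasted arrays had different distributions of intensity, so levels were not set across the feeding states.

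**Figure D5:**
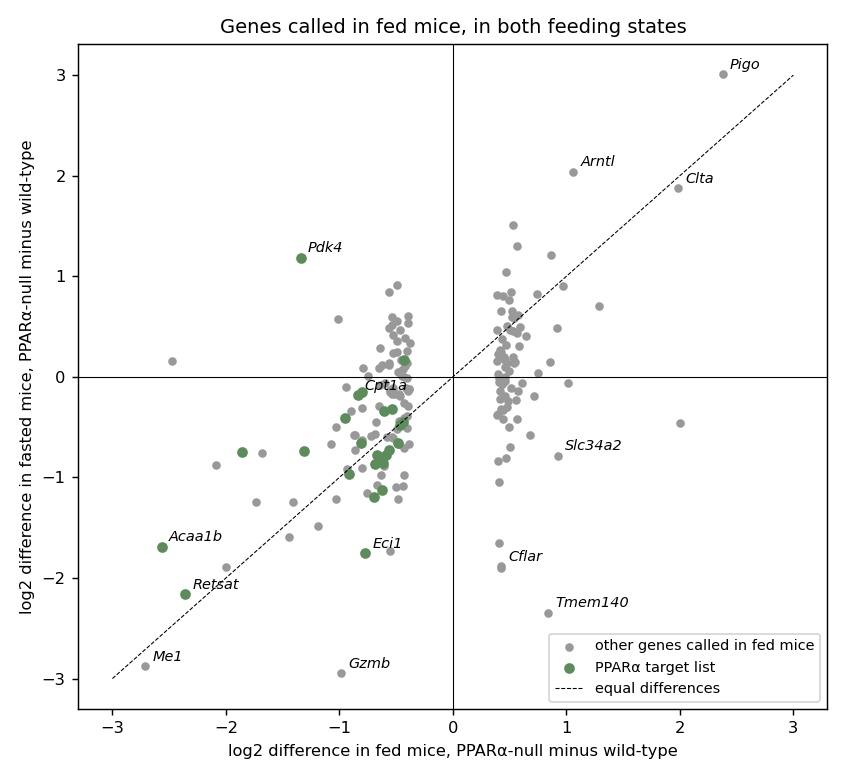
Log2 difference, PPARα-null minus wild-type, in fasted mice (vertical axis) against that in fed mice (horizontal axis) for the genes called in fed mice, each with its called probe set of largest difference. Green points are genes of the PPARα target list and the dashed line marks equal differences; Retsat, Me1 and Clta lie near the line, while Pdk4 (−1.34 and 1.18) and Tmem140 (0.84 and −2.35) lie in quadrants of opposite sign.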

How the data were processed

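RNA of the full-length small intestine of 4 groups of mice, with 3 biological replicates each, had been hybridized to Affymetrix MOE430A arrays, 12 in all. The deposited values are intensities on the linear scale, which the authors made with GCRMA (version 2.20 per the labels), a method that subtracts background, equalizes the distributions of the arrays and summarizes the probes of each set. Median intensities were 12.65 to 12.81 on fed and 11.05 to 11.33 on fasted arrays, so distributions were not equal across the feeding states. Within a feeding state they are equalized, so that a shift between genotypes shared by most genes would not be seen. Groups were taken from the sample titles.

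On log2 values of all 12 arrays a linear model with a mean for each group was fitted in R 4.3.3 by lmFit and eBayes of limma 3.58.1. The contrasts were PPARα-null minus wild-type in fed mice, the same in fasted mice, and the difference between both. Calls required p under 0.01, unadjusted, with more than 1.3-fold change, as in the methods of the study, among probe sets whose mean exceeded 20 in at least 1 of the groups compared. For the difference between both contrasts an adjusted p under 0.05 was asked, with a mean over 20 in any group. The p-values of the kept probe sets were adjusted after Benjamini and Hochberg. Probe sets with 1 symbol (20393) could name a gene, those with several (691) or none (1606) were fitted but not counted as genes. A gene counted once. The fit was tested on simulated data.

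The comparison, the 43 gene lists and the genes named were chosen with earlier results of these data known. Lists were written from general knowledge, and are described by their counts and the median of 1 probe set per gene, the brightest. Named were Ppara, up to 15 of the largest rises and 15 of the largest falls that passed an adjusted p of 0.05 with groups that did not overlap, up to 4 rises, 4 falls and 3 abundant uncalled members per list, called neighbours of Ppara and up to 5 genes called in opposite directions in fed and fasted mice. Of these, only examples of the uncalled members are printed. Other genes were named after their values had been seen. Promoter windows and gene order are from RefSeq (GRCm38.p6).

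Alternatives were the fed arrays alone, other levels (20 in wild-type or in both groups, 100, none), the filter ahead of eBayes, an adjusted p under 0.05, a fold over 1.5, trended and robust variances, array weights, a pseudocount of 16, quantile normalization, centring, 1 probe set per gene, leaving out the types _s_at and _x_at, a block for replicate number, and each array left out, with the spread then shared by all groups.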

Additional observations from a re-analysis of the deposited data

Results flagged for a closer look

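Car1 and Akr1b8 were left out here. Of the 126 other genes given with a value, 39 (41 probe sets) had a genotype difference that differed between fed and fasted mice, at an adjusted p under 0.05 of the interaction in limma. Among all genes tested this share was 29.6%, so such results were common in these arrays. Values are the fed minus the fasted difference, log2, and a negative value means that the difference in fed mice was the lower.

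Among genes of fatty acid oxidation and handling, the value was negative for Acaa1b (−0.87), Acaa2 (−0.59), Acsl5 (−0.43), Cpt1a (−0.66), Eci2 (−0.54), Pdk4 (−2.52), Pex11a (−0.80), G0s2 (−1.58) and Fabp4 (−1.64). It was positive for Acad11 (0.84 and 0.59), Acadm (0.47), Acadvl (0.50), Cpt2 (0.51), Decr1 (0.42), Eci1 (0.98), Ehhadh (0.53), Plin2 (0.33) and Scd2 (0.88). Pdk4 and Pex11a were lower in fed PPARα-null mice, with fasted differences of 1.18 and 0.15. Pparg had −1.0, with differences of 0.10 in fed and 1.11 in fasted mice.

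Of the genes higher in fed PPARα-null mice, Tmem140 had 3.19, Kmt5b 2.33, Cflar 2.30 and Hikeshi 2.06, with probe sets that were lower in fasted PPARα-null mice. Kmt5b and Cflar have other probe sets with fasted differences of 1.17 and 1.0, so that the probe sets of these genes disagreed in fasted mice. Ighm had 2.46 and 1.61 with its probe sets, Slc34a2 1.71, Pfkfb3 1.07, Ddit3 0.99, Atp7a 0.64 and Creb3 0.58. Pigo had −0.63 with 1 probe set, being higher in both feeding states and more so in fasted mice. Its other called probe set had −0.24 and did not pass.

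Nr1d1, not called in fed mice, had −3.46, with a fasted difference of 2.74. Hspa5 had 0.82 and Cyp3a11 −0.41. Of genes lower in fed PPARα-null mice, Gzmb had 1.96, Cd52 1.18, Glo1 0.51, Pck1 −1.13, Ces1e −0.77 and Col18a1 −0.67. The value of Glo1 is that of 1 probe set, and its other called probe sets had 0.18 and 0.19 and did not pass.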

How the results depend on the processing

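None of the 75 named genes that were called changed direction under the alternatives, which were not applied to Car1 and Akr1b8. The main counts were 204 genes called, 84 higher and 120 lower. They were 106, 42 and 64 with a level over 100, 43, 6 and 37 with an adjusted p under 0.05, 75, 19 and 56 with a fold over 1.5, 116, 40 and 76 with a pseudocount of 16, and 333, 133 and 199 with array weights. Leaving out each array in turn gave 191 to 244 called, 89 to 116 higher and 96 to 149 lower. The genes higher in both feeding states (23) numbered 21 to 36 and those lower in both (55) numbered 48 to 62 in this way, and under an adjusted p they were 4 and 26. The count of 36 came without PPARα-null fed replicate 3. Replicate numbers showed no pairing between the fed groups. Deviations of fed arrays with the same number correlated at −0.03, −0.11 and −0.02, and none correlated best with its own number. Between fed and fasted arrays with the same number the values were 0.21, 0.07 and 0.05 in wild-type mice. They were −0.11, 0.11 and 0.18 in PPARα-null mice. With 3 arrays per group such values cannot exclude a pairing. With the replicate block the counts were 215, 90 and 125 over all 12 arrays and 265, 110 and 155 over the 6 fed arrays. The PPARα target list had 18 to 25 lower genes over all settings. Of the 75 named genes 29 were called in every setting that tested them. The adjusted p ended 40 of those calls and the fold over 1.5 ended 22. The number of arrays limits the precision, as do signals near the level of 20, such as those of Ppara, Acot1 and Creb3.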
